A study of Saccharomyces cerevisiae with 12 samples.

Results

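The oxidative phosphorylation genes described here are the 41 nuclear genes for subunits of ATP synthase (12), subunits and assembly factors of cytochrome c oxidase (14), subunits of the bc1 complex (9), both forms of cytochrome c (2) and subunits of succinate dehydrogenase (4). They were chosen by symbol, and each of the 41 matched a gene among the 6002 nuclear protein-coding genes of the RefSeq table for R64. RNA polymerase II (Pol II) was mapped in budding yeast by chromatin immunoprecipitation and sequencing, in a wild-type strain (MATa his3Δ1 leu2Δ0 met15Δ0 ura3Δ0) and in dbp2Δ, the same background with DBP2 replaced by the KanMx6 cassette. Dbp2 is a DEAD-box RNA helicase, and both strains carried a triple FLAG tag on the Pol II subunit Rpb3 and grew in YP medium with glucose. Each strain gave 3 immunoprecipitates and 3 inputs, 12 libraries in all, which the submitters pooled before calling 1 list of peaks per strain.

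The pooled immunoprecipitates kept 3648848 (wild type) and 4030024 (dbp2Δ) fragments once duplicates were removed, and gave 1642 and 1628 peaks. The deleted gene, DBP2, was covered over 100% by peaks in the wild type but 0% in dbp2Δ. With 1 list per strain there was no spread between replicates and no test between the strains, so each difference below is a difference between lists. A gene absent from a list had no region that the caller listed at its q-value limit of 0.05, which is not the same as having no Pol II. The shortest listed peaks were 260 bp (wild type) and 290 bp (dbp2Δ), so shorter regions may have been left out. The signal carries no strand, so transcription of a gene and of its antisense strand cannot be told apart. Each peak comes with a fold enrichment, the ratio of immunoprecipitate to local background at its highest point, the summit, which is the caller's value in the authors' files. It ranks peaks inside 1 list. Where a wild-type and a dbp2Δ value stand together, no direction is read from them, since each list had its own scaling.

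In mitochondria, succinate dehydrogenase and the NADH dehydrogenases pass electrons through the bc1 complex and cytochrome c to cytochrome c oxidase, and the proton gradient that results drives ATP synthase. The catalytic core of cytochrome c oxidase, cytochrome b and part of the membrane sector of ATP synthase are encoded in mitochondrial DNA, while the genes listed here are nuclear and transcribed by Pol II. On glucose, yeast ferments, and genes of the respiratory chain are under glucose repression, which the Hap2/3/4/5 activator opposes when glucose runs out. Neither list held a mitochondrial peak, so the mitochondrially encoded subunits were not analysed here.

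Most of the 41 genes, 28 (68.3%), carried no Pol II peak in either strain, beside 76.4% of all protein-coding genes. A gene was counted as having a peak when peaks covered at least 50% of its span, and 10 of 41 (24.4%) met this in the wild type, beside 19.9% of all protein-coding genes. In dbp2Δ the count was also 10 of 41 (24.4%), beside 20.6%. ATP2, ATP14, ATP17, ATP18, COX5A, QCR6 and CYC7 met it in both lists (7 of 41, 17.1%, beside 16.9%). ATP15, COX9 and COX14 met it in the wild type only (7.32%, beside 3.0%), and COX7, QCR7 and CYC1 in dbp2Δ only (7.32%, beside 3.7%). The counts in the separate strains and in both lay close to the background of all genes, and the counts for 1 strain only rest on 3 genes each. With peaks of at least 2-fold enrichment, both counts for 1 strain only were 0.

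**Figure D1:**
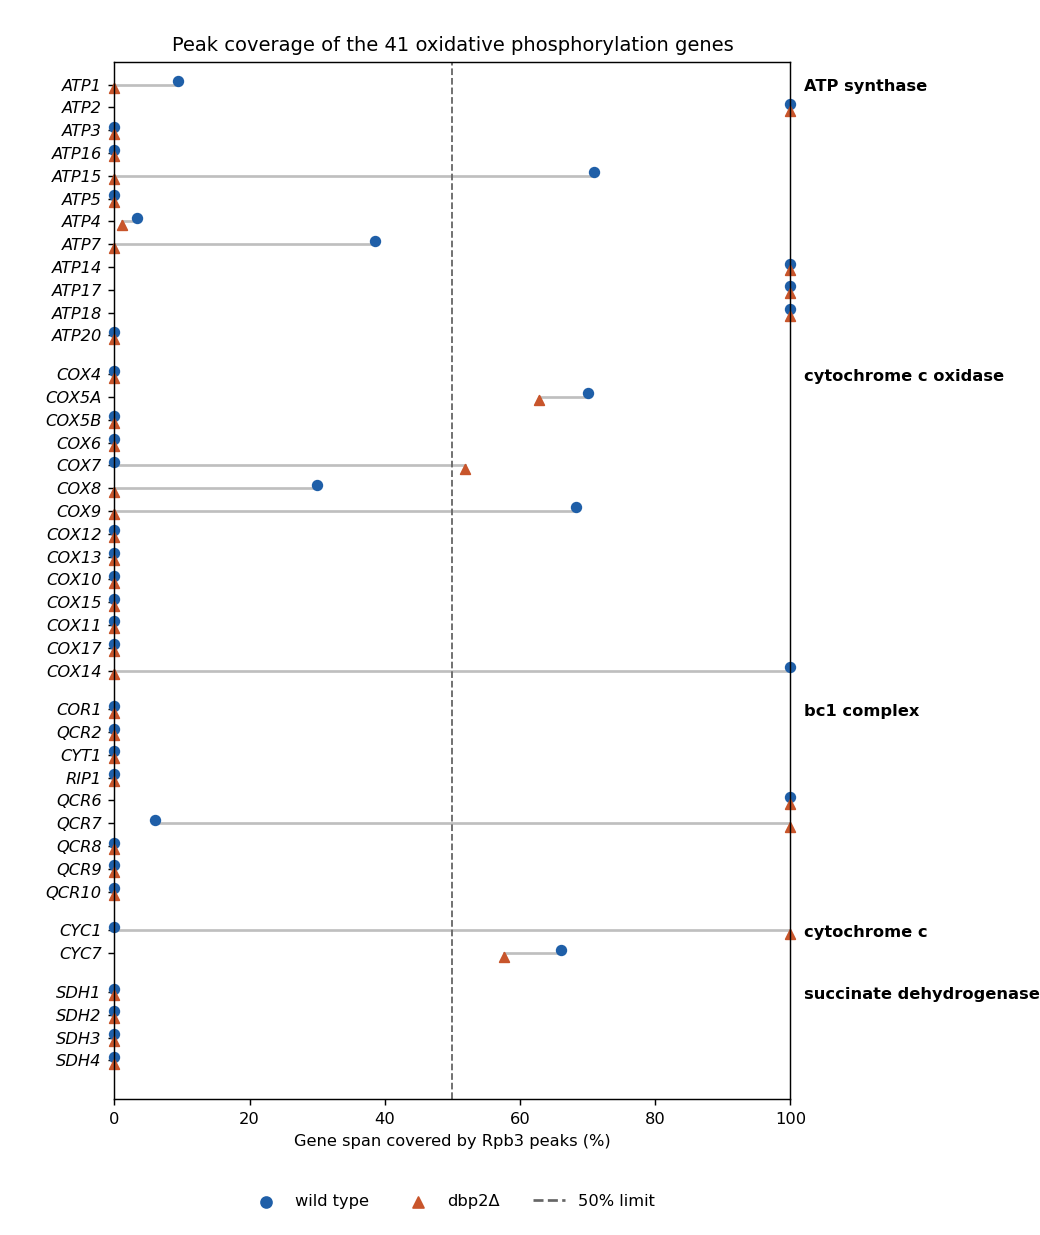
Percent of each gene's span covered by Rpb3 peaks (x axis) for the 41 genes grouped by complex (y axis), with circles for the wild type, triangles for dbp2Δ and a dashed line at the 50% limit. Most symbols sit at 0%, 5 genes sit at 100% in both lists, and COX14, CYC1 and QCR7 lie at or near opposite ends.

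The genes were short, with a median span of 462 bp against 1200 bp for all protein-coding genes, and a short gene is more easily covered by a peak of given width. Of the 27 genes shorter than 600 bp, 9 (33.3%) had a peak in each strain, and of all protein-coding genes between 180 and 599 bp 31.0% did in each strain. Of the 14 genes of 600 bp and more, ATP2 alone had a peak (7.14% in each strain), whereas among all genes from 600 to 1923 bp 19.7% had one in the wild type against 20.1% in dbp2Δ. The other 13 were ATP1, ATP3, ATP4, ATP5, COX10, COX11, COX15, COR1, QCR2, CYT1, RIP1, SDH1 and SDH2.

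The position of the summit shows whether the highest point of a peak lay inside the member it covered, not where the middle of the peak lay. A summit lay inside 2 of the 41 genes in the wild type (4.88%, beside 16.0% of all protein-coding genes) and inside 4 in dbp2Δ (9.76%, beside 14.8%). In the wild type these were ATP15 and COX5A, and in dbp2Δ ATP2, ATP18, COX5A and CYC1. Of the 10 wild-type peaks, 3 had their summit in another gene and 5 between genes, and of the 10 in dbp2Δ the numbers were 4 and 2. Per covered gene, a summit lay inside 2 of 10 members in the wild type, where it did for 54.6% of all covered protein-coding genes, and inside 4 of 10 (40.0%) in dbp2Δ, where it did for 41.1%. A summit falls less easily inside a short gene, and the covered members were short. Their median spans were 324 bp (wild type) and 358 bp (dbp2Δ), against 915 bp and 960 bp for all covered genes. No share was computed for genes of like length, so these differences are not read as a trait of the members. The median fold enrichment over the covered members was 2.44 (wild type) and 2.31 (dbp2Δ), above the medians of all peaks of the lists, 1.99 and 2.04, and below those over all covered protein-coding genes, 2.86 and 2.91. In each list 6 of the 10 (60.0%) ranked in the upper 50%. Of all covered protein-coding genes, 82.8% in the wild type and 79.2% in dbp2Δ did.

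ATP synthase had the most covered genes of the larger complexes, 5 of 12 (41.7%) in the wild type against 4 of 12 (33.3%) in dbp2Δ. The shares of all protein-coding genes were 19.9% and 20.6%. They were 31.0% in each strain for those between 180 and 599 bp, and 19.7% and 20.1% for those from 600 to 1923 bp. ATP1, ATP2, ATP3, ATP4 and ATP5 fell in the longer band and the other ATP synthase genes in the shorter. ATP2 (YJR121W, chromosome X, 647607 to 649142), which encodes the beta subunit of the catalytic head, was covered over 100% in both lists. Its fold enrichment was 2.45 in the wild type, at rank 559 of 1642, against 2.41 in dbp2Δ, at rank 598 of 1628. The peaks began 308 bp and 257 bp upstream of the coding start and ended 415 bp and 499 bp past the coding end. They reached back over the upstream tandem gene DMO1, of which they covered 50.7% and 36.2%. The summit lay 111 bp upstream of the coding start in the wild type, but 1387 bp into the gene in dbp2Δ. The outer edges of the peak thus differed by 51 bp and 84 bp, while the position called as the summit differed by 1498 bp.

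ATP18 (YML081C-A, chromosome XIII, 103983 to 104162), which encodes a small subunit of the membrane sector, had peaks that covered at least 50% of no other gene. It was covered over 100% in both lists, with fold enrichments of 2.48 and 2.51. The summit lay 2 bp past the coding end in the wild type and 122 bp into the 180 bp gene in dbp2Δ. The peak ran on for 411 bp and 444 bp past the coding end, into the convergent gene YML082W, of which 12.3% and 14.0% were covered.

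The remaining ATP synthase peaks found in both lists also covered a neighbour completely. ATP14 (YLR295C, chromosome XII, 721999 to 722373), a peripheral stalk subunit, was covered over 100% by peaks of 3.79-fold and 3.08-fold enrichment. Both had their summit in GSP1, the next gene downstream on the same strand, which encodes the Ran GTPase and was itself covered over 100%. ATP17 (YDR377W, chromosome IV, 1228611 to 1228916), a membrane sector subunit, was covered over 100% by peaks of 2.43-fold and 2.21-fold enrichment that also covered all of LSM6, a convergent gene for a protein of the Lsm ring in RNA decay and splicing. The summit lay 381 bp past the coding end of ATP17 in the wild type, between the genes, and inside LSM6 in dbp2Δ. Whether ATP14 and ATP17 had signal of their own within these peaks cannot be told from the lists.

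ATP15 (YPL271W, chromosome XVI, 30079 to 30267), which encodes a subunit of the central stalk, was the ATP synthase gene covered in the wild type only. Its peak covered 70.9% of the gene, toward the 3′ end, with its summit 98 bp into the gene. The fold enrichment was 1.31, rank 1632 of 1642, and the −log10 q-value 1.90. In dbp2Δ the nearest peak lay 9480 bp away. The peak was therefore among the last of the wild-type list.

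Smaller overlaps touched 3 more ATP synthase genes, below the 50% limit. ATP7, another peripheral stalk gene, was covered over 38.5% by a wild-type peak of 1.54-fold enrichment with its summit 17 bp upstream of the coding start, and had no peak within 3295 bp in dbp2Δ. That wild-type peak was 262 bp long, while the shortest peak of the dbp2Δ list was 290 bp. ATP1, which encodes the alpha subunit of the catalytic head, was touched over 9.46% at its 5′ end by a wild-type peak (1.49) with its summit 210 bp upstream, and its nearest dbp2Δ peak lay 6753 bp away. ATP4 was touched over 3.27% and 1.09% at its 3′ end by the peaks over the convergent ribosomal protein genes RPL21B and RPS9A (13.3 and 15.2), whose summits lay in RPS9A. ATP3, ATP5, ATP16 and ATP20 were touched by no peak in either list.

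**Figure D2:**
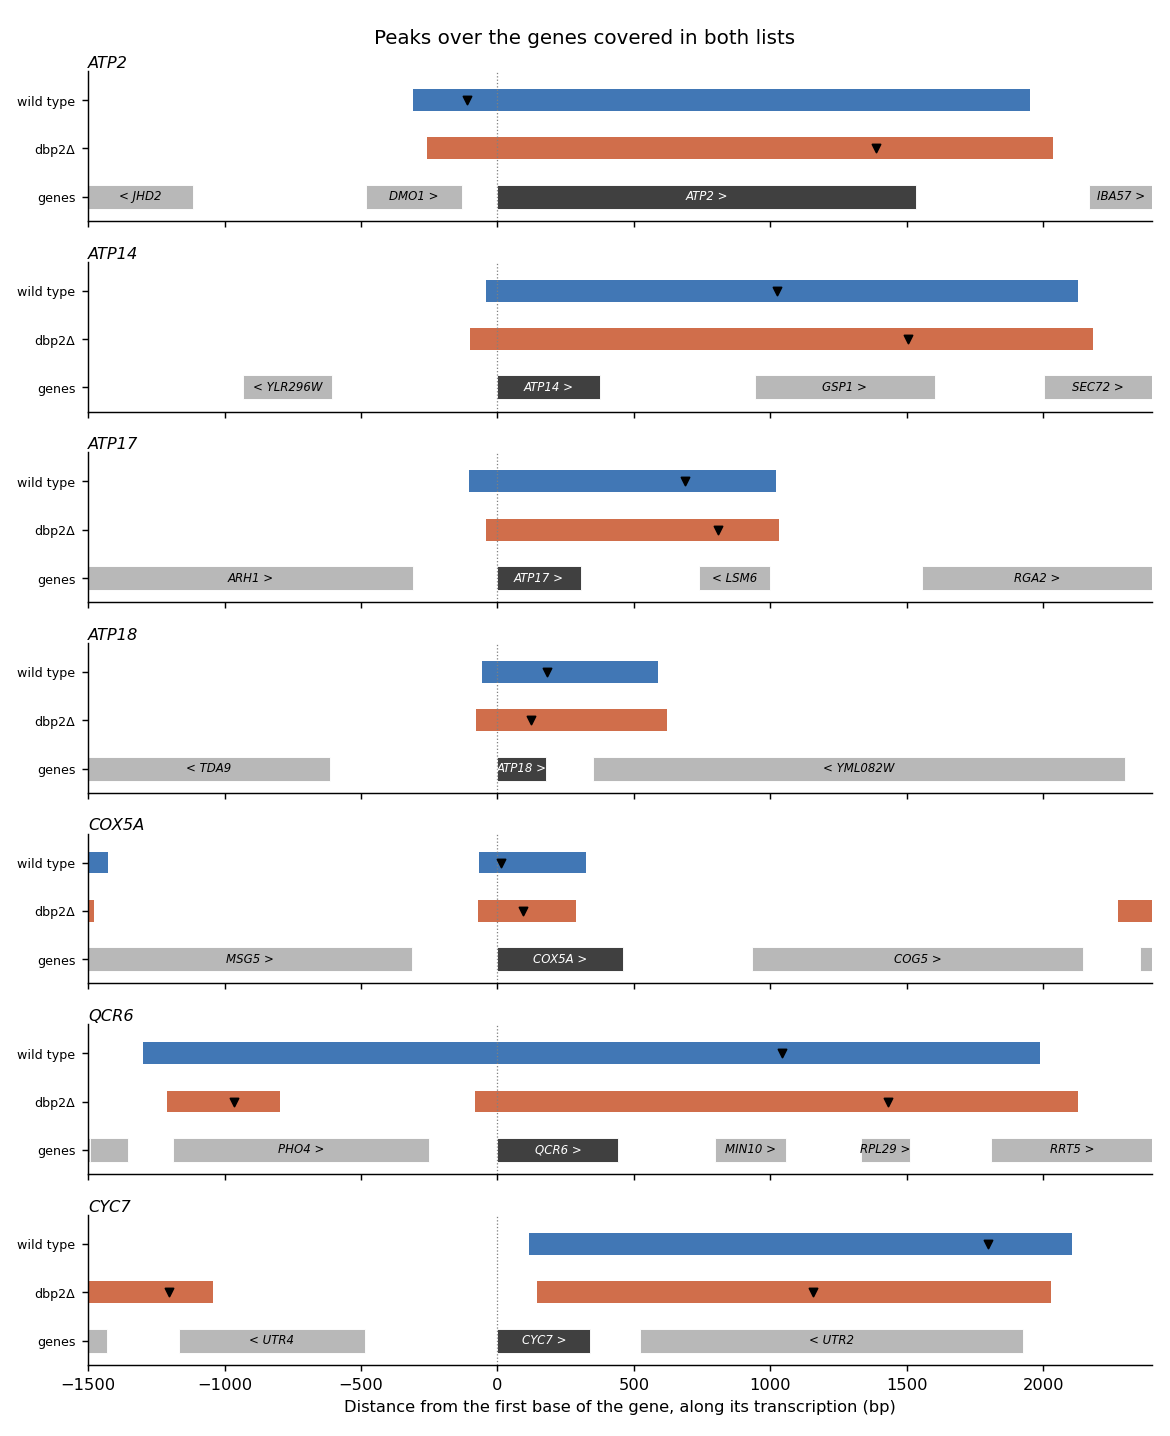
Peaks of the wild type (blue) and dbp2Δ (orange) around the 7 genes covered in both lists, with annotated genes below (dark for the member, grey for others, > and < for direction) and black triangles for summits, along the distance in bp from the first coding base. Summits lie in GSP1 for ATP14, in MIN10 or RPL29 for QCR6 and in UTR2 for CYC7, while those of COX5A lie inside the gene.

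Of the cytochrome c oxidase genes, 3 of 14 (21.4%) were covered in the wild type against 2 of 14 (14.3%) in dbp2Δ. Among all protein-coding genes it was 19.9% and 20.6%, and 31.0% in each strain for those between 180 and 599 bp. All oxidase genes but COX10, COX11 and COX15 fell in that band. COX5A (YNL052W, chromosome XIV, 531725 to 532186) encodes the isoform of the fifth subunit used in aerobic growth, and its peak was the only one in both lists that overlapped no other gene. It covered the 5′ part of the gene, 70.1% of the span in the wild type against 62.8% in dbp2Δ. Summits lay 12 bp and 93 bp into the gene. The fold enrichment was 1.29 in the wild type, rank 1637 of 1642, with a −log10 q-value of 1.77, and 1.63 in dbp2Δ, rank 1219 of 1628, with 7.38. COX5B, which encodes the hypoxic isoform, was touched by no peak, and the nearest lay 1226 bp and 1163 bp away.

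Of the other oxidase genes, each covered one met the limit in a single list. COX9 (YDL067C, chromosome IV, 334217 to 334396), which encodes a small subunit, was covered over 68.3% in the wild type by a peak of 1.33-fold enrichment, rank 1622, with its summit 56 bp past the coding end. The nearest dbp2Δ peak lay 808 bp away. COX14 (YML129C, chromosome XIII, 14541 to 14753), whose product acts in assembly of the oxidase and in control of the synthesis of its core subunit, was covered over 100% in the wild type. That peak had 1.56-fold enrichment, rank 1317, and its summit 293 bp past the coding end, in a gap before ERO1 of 1366 bp. No dbp2Δ peak lay within 3881 bp of COX14.

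COX7 (YMR256C, chromosome XIII, 778945 to 779127), another small subunit gene, met the limit in dbp2Δ, with 51.9% covered. The peak had 1.71-fold enrichment, rank 1128 of 1628, a summit 240 bp past the coding end between COX7 and the convergent gene GFD1, and covered 17.8% of GFD1. In the wild type the nearest peak lay 9859 bp away. COX7 was the member just inside the 50% limit, and ATP7 with 38.5% the one just outside it. COX8 was touched over 30.0% at its 5′ end in the wild type by a peak (1.33) with its summit in the upstream gene VPS33. COX4, COX6, COX12 and COX13 had no overlap in either list, nor did the genes for heme synthesis (COX10, COX15) and copper delivery (COX11, COX17).

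For the bc1 complex 1 of 9 genes (11.1%) was covered in the wild type against 2 of 9 (22.2%) in dbp2Δ. Among all protein-coding genes it was 19.9% and 20.6%, and 31.0% in each strain for those between 180 and 599 bp. All bc1 genes but COR1, QCR2, CYT1 and RIP1 fell in that band. QCR6 (YFR033C, chromosome VI, 224326 to 224769), the gene of the acidic hinge protein, lay within the strongest peaks that covered any member, with fold enrichments of 7.96 (rank 111) and 7.30 (rank 116). These peaks also covered all of RPL29, a ribosomal protein gene, and MIN10, both downstream of QCR6 on the same strand. The summit lay in MIN10 in the wild type, 598 bp past the coding end of QCR6, and in RPL29 in dbp2Δ, 988 bp past it. On the upstream side the wild-type peak went on for 1299 bp and covered all of PHO4, which encodes the transcription factor of the phosphate response. In dbp2Δ this peak ended 82 bp upstream of QCR6, and a separate peak covered 41.9% of PHO4.

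QCR7 (YDR529C, chromosome IV, 1496165 to 1496548), a small bc1 subunit gene, was covered over 5.99% in the wild type but 100% in dbp2Δ. The wild-type peak (1.68, rank 1171) had its summit in the convergent gene HLR1, of which it covered 54.1%, and reached only the 3′ end of QCR7. The dbp2Δ peak (1.63, rank 1219) had its summit 62 bp upstream of the coding start of QCR7 and covered 15.7% of HLR1. These peaks overlapped each other in part, so the locus had a peak in both lists, with summits in different places. Whether it was the same peak in both cannot be told from the lists. The genes of the core proteins (COR1, QCR2), of cytochrome c1 (CYT1) and of the Rieske iron-sulfur protein (RIP1) were touched by no peak, as were QCR8, QCR9 and QCR10.

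Both cytochrome c genes were covered in dbp2Δ and CYC7 in the wild type. The shares of all protein-coding genes were 20.6% and 19.9%. CYC1 (YJR048W, chromosome X, 526335 to 526664), the main aerobic form, was covered over 0% in the wild type, where the nearest peak lay 4392 bp away. In dbp2Δ a peak of 597 bp covered 100% of it and overlapped no other gene. This peak began 103 bp upstream of the coding start and ended 164 bp past the coding end, with its summit 80 bp into the gene. Its fold enrichment was 1.77, rank 1068 of 1628, with a −log10 q-value of 10.4. CYC1 was the only member covered in a single list whose peak had its summit inside the gene and spanned the gene completely.

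CYC7 (YEL039C, chromosome V, 79636 to 79977), the minor form associated with hypoxia, was covered over 66.1% and 57.6%, from its 3′ end. These were the edges of peaks over UTR2, a convergent gene for a cell wall chitin transglycosylase, with fold enrichments of 5.28 and 2.64 and summits inside UTR2. The peaks stopped 116 bp and 145 bp short of the coding start of CYC7. The coverage of CYC7 therefore came from peaks with their summits in its neighbour in both lists.

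Succinate dehydrogenase had 0 of 4 genes covered in either list, beside 19.9% (wild type) and 20.6% (dbp2Δ) of all protein-coding genes. SDH1, the flavoprotein gene, lay 2818 bp and 2788 bp from the nearest peak, SDH2, the iron-sulfur protein gene, 4352 bp and 4355 bp, and the membrane anchor gene SDH3 1076 bp and 1011 bp. SDH4, the other anchor gene, lay 269 bp and 237 bp from a peak, and the gene upstream of it, UBC1 for a ubiquitin-conjugating enzyme, was covered over 100% in both lists.

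**Figure D3:**
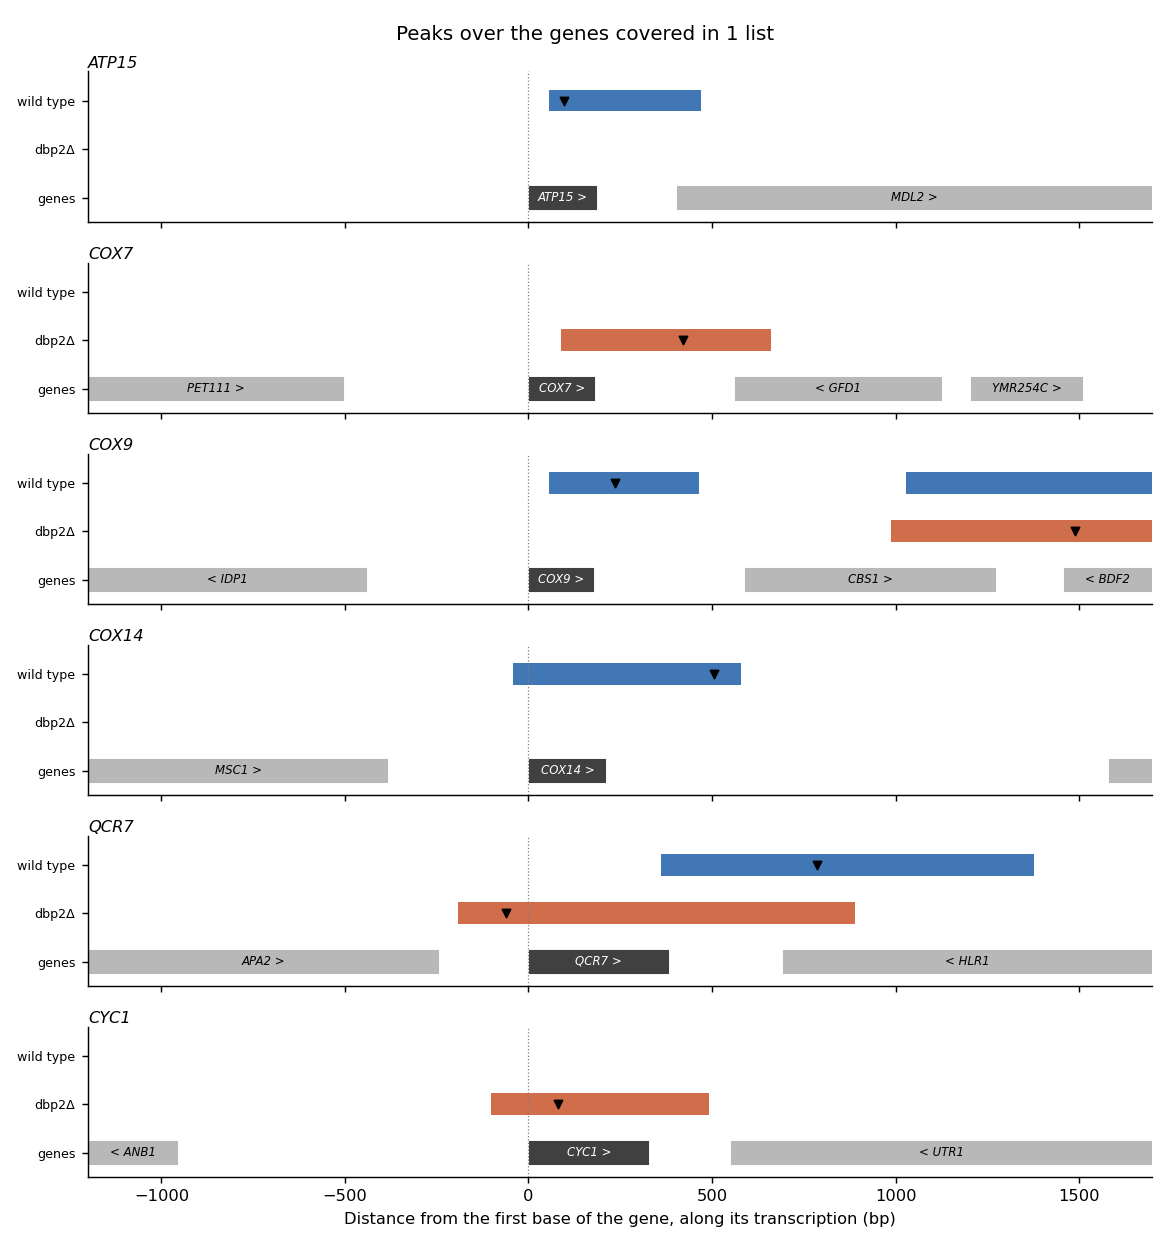
Peaks of the wild type (blue) and dbp2Δ (orange) around the 6 genes covered in 1 list only, drawn along the distance in bp from the first coding base, with genes and summits marked as in the map of the genes covered in both lists. QCR7 shows peaks in both lists that overlap, and the other 5 show a peak in a single list over the gene.

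Counted by any overlap of at least 1 bp, 15 members were touched in the wild type (36.6%, beside 38.8% of all protein-coding genes) and 11 in dbp2Δ (26.8%, beside 42.4%). ATP1, ATP7, ATP15, COX8, COX9 and COX14 were touched in the wild type only (14.6%, beside 4.93%), and COX7 and CYC1 in dbp2Δ only (4.88%, beside 8.51%). Among all genes the lists differed the other way, with more genes touched in dbp2Δ only. The 6 wild-type peaks without a dbp2Δ counterpart were weak, with fold enrichments from 1.31 to 1.56 and −log10 q-values from 1.90 to 5.26. That of ATP7, at 262 bp, was shorter than any peak of the dbp2Δ list (290 bp or more), so the lists were not alike for it. The 2 dbp2Δ peaks without a wild-type counterpart had 1.71 and 1.77, with 9.15 and 10.4. Of the 10 wild-type peaks counted over a member, 3 (30.0%), those of ATP15, COX5A and COX9, ranked in the last 10% of the list, where 1.75% of all covered protein-coding genes did. In dbp2Δ it was 0 of 10, where 0.969% of all such genes did. The 3 wild-type peaks were 390 to 415 bp long, and peaks of that length reach the 50% limit over short genes only. Covered members had a median span of 324 bp in the wild type, against 915 bp for all covered protein-coding genes.

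In total 24 members (58.5%, beside 52.7% of all protein-coding genes) were touched by no peak in either list. Their distance to the nearest peak ran from 66 bp for QCR9 to 6973 bp for QCR8 in the wild type, with a median of 2082 bp. In dbp2Δ it ran from 44 bp for QCR9 to 6609 bp for ATP20, with a median of 1882.5 bp. In each list 16 of the 24 lay more than 1000 bp from a peak. A next annotated gene on either side was itself covered for 7 of the 24 in each list. These counts of 16 and 7 were not made for all protein-coding genes, so they are not read as a trait of the members. ATP5 lay beside BFR2, COX11 beside RPL5, COX17 beside DRS1, and CYT1 beside YNG1, each of these neighbours covered over at least 50% in both lists. COX13 had a covered neighbour in the wild type only, where CDC55 was covered over 60.6% against 0% in dbp2Δ, and QCR9 had one in dbp2Δ only, where TIM13 was covered over 64.2% against 31.4% in the wild type. ATP16 showed the largest shift, from 218 bp to 1900 bp from the nearest peak.

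**Figure D4:**
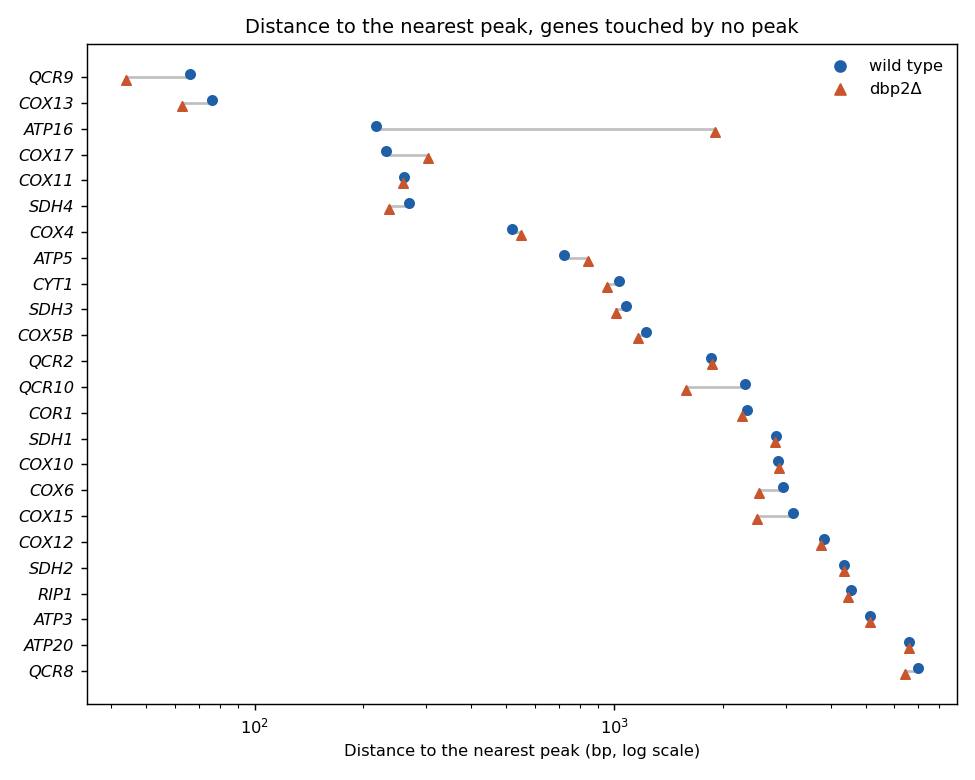
Distance in bp (log scale, x axis) from each of the 24 genes touched by no peak to the nearest peak, for the wild type (circles) and dbp2Δ (triangles), ordered by the wild-type distance. The symbols lie close together for most genes, from 66 and 44 bp for QCR9 upward, and are farthest apart for ATP16 at 218 and 1900 bp.

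Other genes of respiration were taken as 6 lists with 81 genes, of which 11 (13.6%) were covered in the wild type against 12 (14.8%) in dbp2Δ, again beside 19.9% and 20.6%. By any overlap, 2 of the 81 (2.47%) were touched in the wild type only and 8 (9.88%) in dbp2Δ only, beside 4.93% and 8.51% of all protein-coding genes. Tricarboxylic acid cycle genes had 0 of 11 in both lists, beside the same 19.9% and 20.6%. IDH1, a subunit of isocitrate dehydrogenase, was touched over 29.8% in dbp2Δ. Of 39 assembly factor genes, 3 (7.69%, beside 19.9%) were covered in the wild type against 2 (5.13%, beside 20.6%) in dbp2Δ. COX18 (2.92 and 2.29), which shared its peaks with ADE6 and SPT4, and COX19 (2.19 and 3.03) were covered in both lists. The dbp2Δ peak of COX19 also overlapped KNS1. SCO2, a copper delivery gene, was touched over 21.6% and 26.9% by peaks shared with OLA1 (4.62 and 3.89), and PET54 over 2.72% in the wild type by a peak over the snRNA genes SNR7-L and SNR7-S (11.1). In dbp2Δ only, CBP1 was touched over 42.8% (2.09), CYT2, the gene of cytochrome c1 heme lyase, over 39.7% (1.88), CBP2 over 13.1% (1.62) and COX16 over 7.28% (1.71), with the summit inside the gene for CBP1, CYT2 and CBP2. Each of these peaks also overlapped another gene. Any overlap counted, 6 assembly factor genes (15.4%) were touched in the wild type against 9 (23.1%) in dbp2Δ. The shares of all protein-coding genes were 38.8% and 42.4%. OXA1, the inner membrane insertase gene, was covered over 82.4% in the wild type and 35.4% in dbp2Δ, by peaks shared with BEM2.

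Of 8 further subunits and complex-bound factors, 2 (25.0%) were covered in the wild type against 3 (37.5%) in dbp2Δ. The shares of all protein-coding genes were 19.9% and 20.6%. RCF2 (3.41 and 3.48) shared its peaks with TIM23, and ATP19 (2.79 and 2.51) with BRX1. STF2, a factor linked to the ATP synthase inhibitor, was covered over 99.2% in dbp2Δ (1.79), by a peak shared with ECT1, and 0% in the wild type. Among the 6 dehydrogenase genes that feed the chain, NDE1, an external NADH dehydrogenase, was covered over 15.0% in the wild type and 100% in dbp2Δ (2.47), by a dbp2Δ peak that also overlapped FDO1 and had its summit outside NDE1. The other 5 (83.3% of the 6) had no overlap in either list, beside 52.7% of all protein-coding genes.

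Carrier and porin genes had 3 of 8 (37.5%) in each list, beside 19.9% (wild type) and 20.6% (dbp2Δ) of all protein-coding genes. PET9 and POR1 were covered in both. The summit lay inside each of the 3 in the wild type, and inside POR1 alone of the 3 in dbp2Δ. PET9, the main ADP/ATP carrier gene, was covered over 100% in both (1.78 and 2.68), and POR1, the porin gene of the outer membrane, over 75.6% and 54.7% (2.25 and 2.71). In both lists the peak of PET9 also overlapped SHE1, and that of POR1 overlapped OCA2. The phosphate carrier gene MIR1 met the limit in dbp2Δ only (30.2% and 96.4% covered), and the dicarboxylate carrier gene DIC1 in the wild type only (54.6% and 31.7%). The wild-type peak of DIC1 also overlapped KAP95. The citrate carrier gene CTP1 was touched over 32.9% in dbp2Δ only (1.81), by a peak shared with BSD2. The minor ADP/ATP carrier genes AAC1 and AAC3 were touched by no peak. Among 9 regulators, HXK2, the hexokinase gene that takes part in glucose repression, was covered over 100% in both (4.41 and 3.37), by peaks that also overlapped RTG2. The hypoxic repressor gene ROX1 was covered over 53.2% and 100% (1.87 and 2.80). Its dbp2Δ peak also overlapped UBA3 and had its summit outside ROX1. HAP1, the heme-responsive activator gene, was covered over 53.2% and 100% (9.23 and 9.62), with a summit inside its span in the wild type but not in dbp2Δ. The peaks also overlapped YLR256W-A, a retrotransposon gene at that locus, so these values need not describe HAP1. HAP5, a DNA-binding subunit of the Hap2/3/4/5 activator, was touched over 41.7% in the wild type (2.75), by a peak shared with VTS1 and PDE2, and 0% in dbp2Δ. HAP2, another subunit, was touched over 0.877% in dbp2Δ only. HAP4, the regulated subunit of that activator, was touched by no peak.

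**Figure D5:**
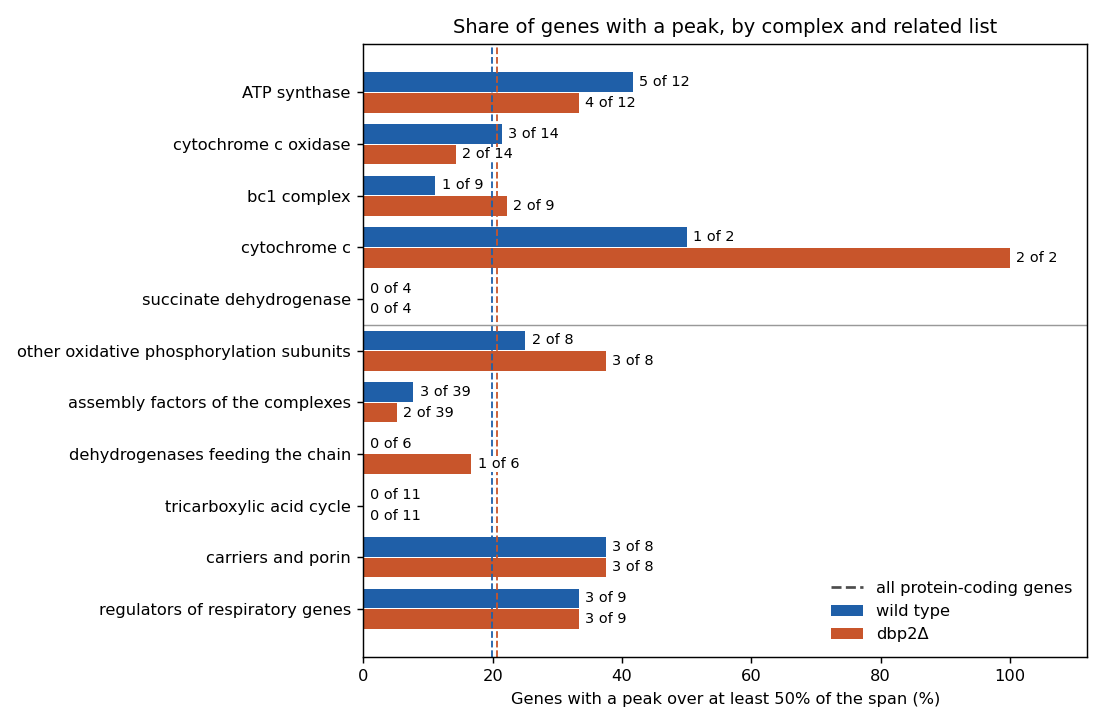
Percent of genes with a peak over at least 50% of the span (x axis) for the 5 complexes and the 6 related lists (y axis), in the wild type (blue) and dbp2Δ (orange), with counts at the bars and dashed lines at 19.9% and 20.6% for all protein-coding genes. Succinate dehydrogenase and the tricarboxylic acid cycle stand at 0, and the bars of the small complexes rest on few genes.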

How the data were processed

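The files were 2 peak lists, 1 per strain. Trimmomatic 0.36, Bowtie2 2.3.3.1 and MACS2 2.1.2, with build R64, are listed in the submitters' processing notes. Per the file headers, the caller took paired-end fragments of the pooled immunoprecipitates, with the pooled inputs as control and a q-value cutoff of 0.05, and no peak was shorter than 260 bp in the wild type or 290 bp in dbp2Δ. The deposited lists give positions counted from 1, the pileup signal (not used here), the −log10 q-value and the fold enrichment, a ratio at the summit. The labels give the molecule as polyA RNA, whereas their extraction protocol describes immunoprecipitated DNA.

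Gene spans, taken from the RefSeq R64 table, were multiples of 3 for 96.4% of protein-coding genes, so they are coding regions, with any introns and without UTRs. Strand was read from the systematic name. Coverage was computed in Python 3.11.15 with pandas 2.3.3, and checked on simulated peaks. Fold enrichment per gene is that of its highest overlapping peak. Members, related lists and comparisons were chosen with earlier results of these data known. All members were named, with full values for those covered in a list or partly covered, and of each related list up to 4 genes of highest wild-type fold enrichment and those covered in 1 list; COX16, COX19, CBP1, CBP2, CYT2, IDH1, CTP1, AAC1, AAC3, HAP2 and HAP4 were added after their values were seen. Alternatives changed the coverage, q-value, fold, peak length and overlap limits. Promoter motifs and proteins, planned for comparison, were not analysed here.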

Additional observations from a re-analysis of the deposited data

How the results depend on the processing

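The counts of covered members were recomputed under other limits. With peaks of at least 2-fold enrichment, 6 members were covered in each strain, the same 6 genes (ATP2, ATP14, ATP17, ATP18, QCR6 and CYC7), so 0 were covered in the wild type only and 0 in dbp2Δ only, and a summit lay inside 0 members for the wild type and 2 for dbp2Δ. At a coverage limit of 80%, 6 were covered in the wild type, 1 of them there only (COX14). For the wild type only the count was 5 at a limit of 25% and 6 at any overlap of 1 bp. With a q-value of at most 0.001, 1 member (COX14) was covered in the wild type only and 0 had a summit inside in the wild type. Counting summits within 100 bp of the gene gave 5 in the wild type. The other counts of members and of shared peaks, under these limits and with peaks of at least 290 bp or a mutual overlap of 50% between peaks, stayed within 1.5 times the reported ones. All peaks behind the calls for a single list had fold enrichments below 2. No paired analysis was possible because the libraries were pooled before peaks were called, and for the same reason single replicates could not be left out.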

Other observations

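Where a peak covered at least 50% of a member and of another gene, the relation of the genes differed from case to case. ATP14 and QCR6 lay upstream of a covered gene on the same strand, ATP17 and CYC7 faced theirs, end to end, and ATP2 in the wild type lay downstream of DMO1 on the same strand, as QCR6 there lay downstream of PHO4. The gap between the coding regions was 568 bp for ATP14 and GSP1, 352 bp for QCR6 and MIN10, 250 bp for QCR6 and PHO4, 432 bp for ATP17 and LSM6, 179 bp for CYC7 and UTR2, and 130 bp for ATP2 and DMO1.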
